A study of Danio rerio with 2 samples.

Results

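pck1, fbp1b and gapdh are 3 enzyme genes of sugar metabolism that were measured in single cells of the larval zebrafish gut. They were taken by their gene symbols from the deposited gene list, in which each symbol stood for 1 feature (ENSDARG00000013522, ENSDARG00000020364 and ENSDARG00000043457), so that the genes are 3 of 27056 symbols. The study compared WT larvae with il26KO larvae, which carry a CRISPR/Cas9 deletion within the interleukin-26 gene. There was 1 droplet single-cell RNA library per genotype, made from 50 guts of larvae at 5 days post-fertilization (dpf) that had been dissociated in 5 tubes of 10 and then pooled. Per the study's text, WT and mutant larvae came from separately housed adults that had been clutchmates. Each genotype was a single pool, so no difference between the genotypes below could be tested, and the intervals given are 95% intervals for counting error only.

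Gluconeogenesis makes glucose from lactate, amino acids and glycerol, and is best known from liver and kidney, with a smaller and diet-dependent part in the intestinal epithelium. pck1 encodes the cytosolic phosphoenolpyruvate carboxykinase, which turns oxaloacetate into phosphoenolpyruvate, an early step of the pathway from lactate and amino acids. fbp1b encodes a fructose-1,6-bisphosphatase, which removes a phosphate from fructose-1,6-bisphosphate and bypasses the irreversible phosphofructokinase step of glycolysis. gapdh encodes glyceraldehyde-3-phosphate dehydrogenase, which works in both directions and is therefore shared by glycolysis and gluconeogenesis. None of these 3 enzymes takes up or phosphorylates dietary fructose. Carbon from fructose enters the same route as triose phosphates, so the genes of fructose uptake and use are described beside them.

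The filters kept 5122 cells of the WT and 3841 of the il26KO library, with median depths of 10214.5 and 14257 unique molecular identifiers (UMIs) per cell. They were clustered without the pathway genes and fell into 30 clusters, of which 29 were named in 14 classes from fixed markers. A class name stands for cells that resemble that type. The targeted gene il26 had 1 UMI in the WT cells and 0 in the il26KO cells, too few to check the genotypes, and 10 barcodes were shared by the kept cells of both libraries. All 12 genes of the anterior enterocyte list were detected in the anterior enterocyte-like cells of both libraries, at summed levels of 83652 and 84935 CPM. The same list had named that class, so these values are no independent check of the gut label. Levels are given as CPM, the count of a gene for each 1000000 UMIs of the class. No cluster was named hepatocyte, the cell type best known for these enzymes. The 10 measured genes of the hepatocyte list summed to 144 CPM in the WT and 290 CPM in the il26KO absorptive enterocyte-like cells. In barcodes with too few UMIs to be cells they summed to 441 and 2930 CPM. The 12 genes of the pancreatic acinar list summed there to 15287 CPM in WT and 650 CPM in il26KO, and in all kept cells to 742 and 176 CPM. With 1 library per genotype, such differences in neighbouring tissue cannot be told apart from genotype.

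All 3 genes were counted mostly in absorptive enterocyte-like cells, meaning the anterior, ileal and lysosome-rich enterocyte-like classes together. These cells were 32.8% of the WT and 38.4% of the il26KO cells and gave 51.4% and 61.2% of all UMIs. They held 91.1% and 94.9% of the pck1 UMIs, 85.5% and 89.5% of the fbp1b UMIs, and 82.8% and 89.8% of the gapdh UMIs. Against all other kept cells, the pck1 level was 9.63-fold higher in the WT library and 11.8-fold higher in the il26KO library. For fbp1b the corresponding values were 5.57-fold and 5.40-fold, and for gapdh 4.55-fold and 5.61-fold.

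pck1 was highest in anterior enterocyte-like cells, the class led by the lipid-handling genes fabp1b.1, apoa1a and fabp2. Its level there was 2008 CPM (interval 1993 to 2023) in WT and 1473 CPM (1461 to 1484) in il26KO. Ileal enterocyte-like cells, marked by the bile acid genes fabp6 and slc10a2, came next with 1586 CPM in WT and 1430 CPM in il26KO. In the il26KO library the intervals of these leading classes overlapped, and in the WT library they did not. Lysosome-rich enterocyte-like cells, which take up and digest protein in the larval gut, held less, 361 CPM for WT and 551 CPM for il26KO. The epidermal-like class followed with 341 and 221 CPM.

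The epidermal-like level came mostly from 1 of 3 clusters. In the cluster led by krt91, malb and cldnh, which also had the posterior gene hoxb13a among its leading genes, pck1 stood at 447 CPM for WT and 362 CPM for il26KO. That cluster had krt92 of the ileal list among its leading genes too, and 4 of 10 epidermal markers were raised in it. The epidermal name is therefore uncertain for this cluster. Over the whole class, not this cluster alone, the 7 measured ileal markers summed to 10697 and 8204 CPM. In epithelial progenitor-like cells they summed to 15613 and 10433 CPM. In the cluster led by icn and tcnba pck1 stood at 21.4 and 23.2 CPM, and in a cluster of 58 and 32 cells led by gstp2 at 33.1 and 102 CPM. Epithelial progenitor-like, best4 enterocyte-like and enteroendocrine-like cells formed a middle group at 181 to 192 CPM in WT and 115 to 127 CPM in il26KO, within which neighbouring intervals overlapped in each library. All other classes lay at or below 35.1 CPM in WT and 57.7 CPM in il26KO.

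Barcodes with too few UMIs to be cells show how much of each transcript was free in the suspension. Their pooled profile held 714 CPM of pck1 in WT and 695 CPM in il26KO. Anterior and ileal enterocyte-like cells lay above it and every other class below it. A typical size, 252 UMIs in WT and 241 in il26KO, was the median over a separate set of barcodes ranked below the cells by UMIs. The amount of pck1 that free RNA would give was estimated from this size and the pooled profile, which came from barcodes of 50 to 500 UMIs. The level in anterior enterocyte-like cells was 468 times that amount in WT and 458 times in il26KO. In vascular endothelial-like cells, where the enzyme is not expected, the level of 28.9 CPM in WT was 1.35 times the amount expected from free RNA, and that of 26.8 CPM in il26KO was 1.57 times.

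The share of cells with a pck1 UMI gave the same order of classes at equal depth. After each cell was thinned to 1000 UMIs, 80.6% of the WT and 70.5% of the il26KO cells of the anterior class held at least 1 pck1 UMI. In ileal enterocyte-like cells the shares were 65.6% and 66.5%, and in lysosome-rich enterocyte-like cells they were 25.4% and 36.1%. The background shares in vascular endothelial-like cells were 4.84% and 3.77%. Without thinning, the shares in anterior enterocyte-like cells were 97.6% and 95.4%, and the median cell there had 36003 UMIs in WT and 49212 in il26KO. The vascular endothelial-like shares were then 20.7% and 21.7%, for cells with medians of 5476 and 7140.5 UMIs.

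**Figure D1:**
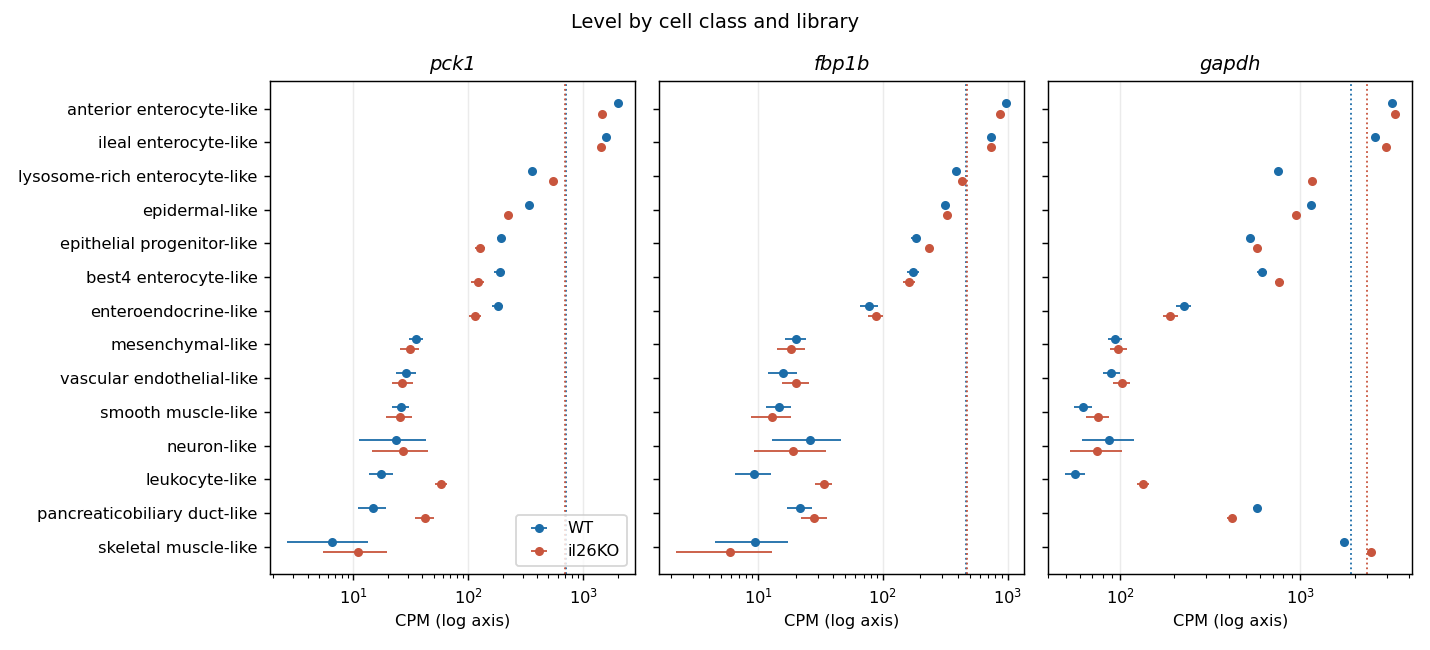
Level of pck1, fbp1b and gapdh in 14 cell classes, in CPM on log axes, for the WT library (blue) and the il26KO library (red). Bars are 95% counting intervals and dotted lines mark the level in barcodes without a cell: pck1 and fbp1b exceed that line in anterior and ileal enterocyte-like cells only, and gapdh also in the il26KO skeletal muscle-like cells.

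fbp1b followed pck1 in order, with a shallower slope between classes. Its level was 981 CPM in WT and 866 CPM in il26KO anterior enterocyte-like cells, and 736 and 743 CPM in ileal enterocyte-like cells. Lysosome-rich enterocyte-like cells held 387 and 430 CPM, and the epidermal-like class 315 and 326 CPM, again from the cluster led by krt91 and malb (412 and 553 CPM). Progenitor-like cells had 183 and 236 CPM and best4 enterocyte-like cells 175 and 162 CPM, with overlapping intervals in WT. Enteroendocrine-like cells had 78.0 and 87.9 CPM. The remaining classes had at most 25.9 CPM in WT and 33.6 CPM in il26KO, against 464 and 475 CPM in barcodes without a cell.

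gapdh was also high in some classes with little pck1 or fbp1b. Anterior enterocyte-like cells held 3224 CPM in WT and 3360 CPM in il26KO, and ileal enterocyte-like cells 2573 and 2960 CPM. Skeletal muscle-like cells, which depend on glycolysis, were the only class outside the absorptive epithelium above 1200 CPM. They held 1732 CPM in 50 WT cells and 2467 CPM in 18 il26KO cells, whose median depths were far apart, at 2399.5 and 49363.5 UMIs. pck1 and fbp1b were at 6.58 and 9.40 CPM in those WT cells and at 10.9 and 5.95 CPM in the il26KO cells. The epidermal-like class held 1137 and 942 CPM of gapdh, and lysosome-rich enterocyte-like cells 747 and 1155 CPM, so that these classes stood in opposite order in the 2 libraries. Pancreaticobiliary duct-like cells held 571 and 415 CPM of gapdh, while their pck1 level was 14.8 and 41.8 CPM. In mesenchymal-like, smooth muscle-like, vascular endothelial-like and neuron-like cells gapdh lay between 62.5 and 102 CPM, which was 1.26 to 1.79 times the amount expected from free RNA. The cluster left unnamed, led by agr2 and icn with 193 cells in WT and 82 in il26KO, lay between these classes and the ileal one for each gene, with 605 and 719 CPM of gapdh, 309 and 210 CPM of pck1 and 297 and 243 CPM of fbp1b.

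Single cells of a class varied widely around these sums. In WT anterior enterocyte-like cells the median cell held 1943 CPM of pck1, with quartiles of 1307 and 2701 CPM. In il26KO the median was 1360 CPM and the quartiles were 833 and 2017 CPM. In lysosome-rich enterocyte-like cells the median cell held 176 CPM of pck1 in WT and 434 CPM in il26KO. The lower quartile of the WT cells was 0. For fbp1b the anterior medians were 951 CPM for WT and 813 for il26KO cells, and the lysosome-rich ones 322 and 384 CPM. The gapdh medians were 3001 and 3116 CPM in the anterior and 593 and 1002 CPM in the lysosome-rich class. At 1000 UMIs per cell, an fbp1b UMI was found in 61.0% and 53.6% of anterior, 44.8% and 45.9% of ileal and 30.6% and 33.4% of lysosome-rich enterocyte-like cells. The background shares of fbp1b in vascular endothelial-like cells were 2.53% and 3.77%. No single cell gave more than 1.24% of the UMIs of any of these genes in the anterior class.

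**Figure D2:**
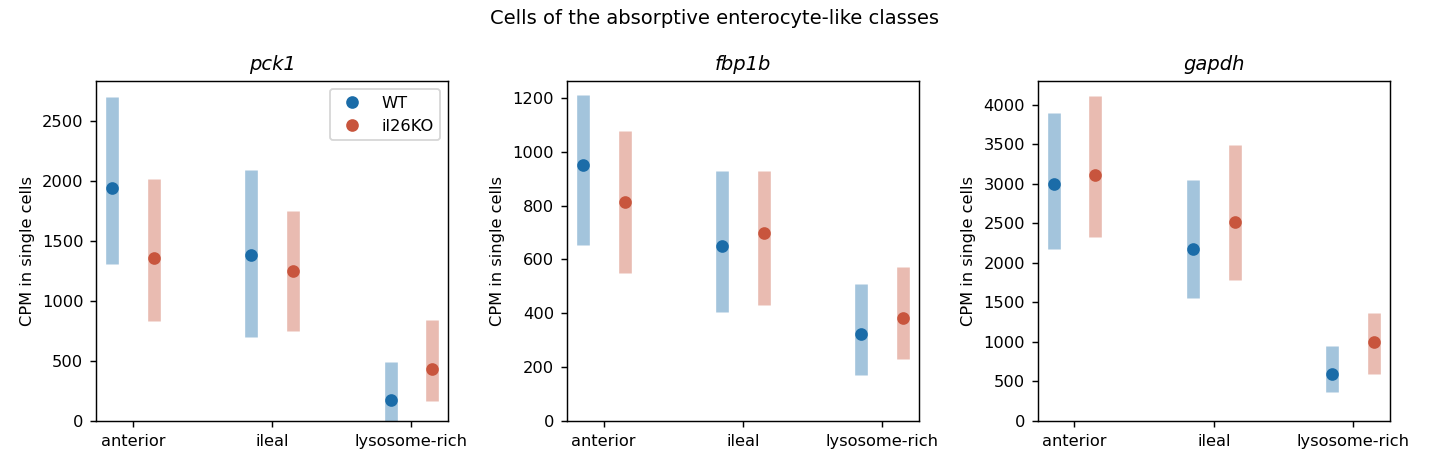
CPM of pck1, fbp1b and gapdh in single cells of the 3 absorptive enterocyte-like classes, with the median cell (point) and the range between the quartiles (bar) for WT (blue) and il26KO (red). The pck1 bar lies lower in il26KO than in WT in the anterior class (median 1360 against 1943 CPM) and higher in the lysosome-rich class (434 against 176 CPM).

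Of the close paralogs of these genes, 1 was distributed alike and 3 were not. pck2, which encodes the mitochondrial phosphoenolpyruvate carboxykinase, followed pck1 and was 4.35-fold higher in WT and 4.91-fold higher in il26KO absorptive enterocyte-like cells than in the other cells. Its level there was 147 CPM in WT and 185 CPM in il26KO. fbp1a, the second fructose-1,6-bisphosphatase of this type in zebrafish, was lower in absorptive enterocyte-like cells, at 21.5 and 23.8 CPM, than in the other cells, at 71.2 and 72.7 CPM. Its highest class was the epidermal-like one, with 143 CPM in WT and 165 CPM in il26KO. fbp2, the muscle type of the enzyme in mammals, was highest in smooth muscle-like cells, with 47.9 and 130 CPM, and had at most 25.8 CPM in every other class.

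gapdhs, the other glyceraldehyde-3-phosphate dehydrogenase gene, was nearly the mirror image of gapdh. In anterior, ileal and lysosome-rich enterocyte-like cells it was at 14.2, 15.4 and 21.1 CPM in WT and at 7.93, 7.09 and 15.7 CPM in il26KO. In neuron-like cells it reached 1657 CPM in WT and 1808 CPM in il26KO, in smooth muscle-like cells 1130 and 1272 CPM, in enteroendocrine-like cells 1032 and 1046 CPM, and in leukocyte-like cells 1018 and 1237 CPM. Over the other cells together gapdhs stood at 489 CPM for WT and 592 CPM for il26KO, against 15.9 and 9.27 CPM in absorptive enterocyte-like cells. Across 26 profiles, of 13 classes in each library, Pearson's r of log2(CPM + 10) between gapdh and gapdhs was -0.86. best4 enterocyte-like cells held both genes, with 614 and 764 CPM of gapdh and 766 and 659 CPM of gapdhs. Skeletal muscle-like cells held gapdh with little gapdhs, at 78.0 and 8.92 CPM.

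**Figure D3:**
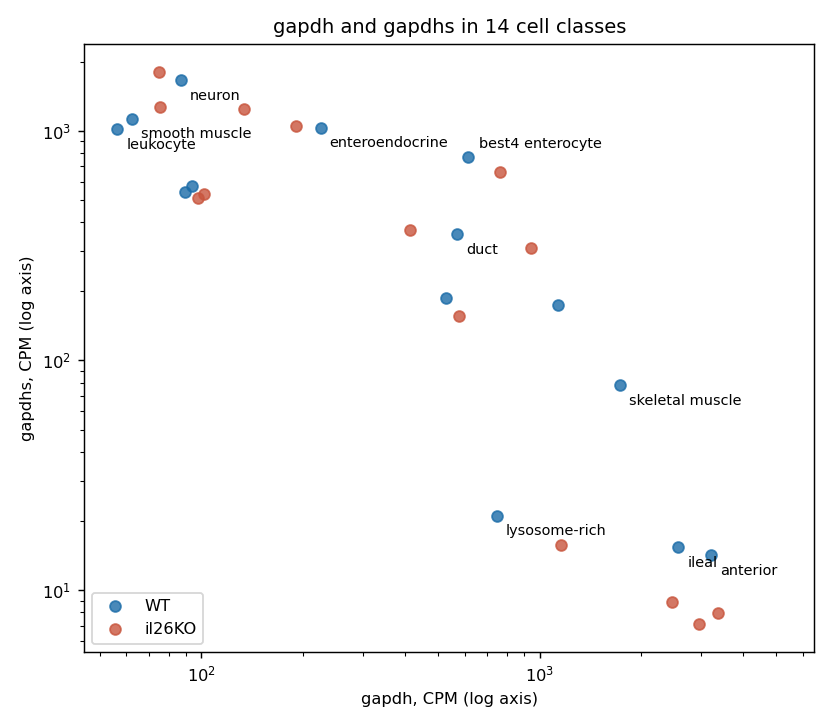
Level of gapdhs against that of gapdh in 14 cell classes, both in CPM on log axes, with WT in blue and il26KO in red and part of the WT points labelled. Absorptive enterocyte-like and skeletal muscle-like classes lie at the lower right, and neuron-like, smooth muscle-like, enteroendocrine-like and leukocyte-like classes at the upper left, with more than 1000 CPM of gapdhs.

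The rest of the pathway was read from 6 gene lists, of which 97 genes were in the data. A gene was counted as higher or lower where its level in absorptive enterocyte-like cells differed from that in all other cells by at least 2-fold in both libraries, among genes with at least 50 UMIs in each. By this rule 6.6% of all 18454 genes were higher and 45.6% were lower, and the median log2 ratio of all genes was -0.98. In the list of gluconeogenesis-specific steps, 6 of 12 genes were higher and 4 lower, with a median log2 ratio of 1.17. Those higher were pck1, fbp1b, pck2, pcxb, g6pca.2 and slc37a4a. pcxb encodes pyruvate carboxylase, which supplies oxaloacetate to pck1, with 780 CPM for WT and 875 CPM for il26KO against 107 and 108 CPM in the other cells. g6pca.2 encodes a glucose-6-phosphatase, which releases free glucose at the end of the pathway, and had 734 and 607 CPM against 117 and 78.2 CPM. slc37a4a, a glucose-6-phosphate transporter of the endoplasmic reticulum, had 92.9 and 94.4 CPM against 16.5 and 18.7 CPM. The lower genes were fbp1a, fbp2, g6pc3 and slc37a4b.

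The fructose list had the largest share of higher genes, 6 of 7, with none lower. The log2 ratios of slc2a5, the fructose transporter of the brush border in mammals, were 5.55 in WT and 5.55 in il26KO. Its level was low, at 8.72 and 8.74 CPM against 0.186 and 0.187 CPM in the other cells. sord, sorbitol dehydrogenase, which makes fructose from sorbitol, had log2 ratios of 2.64 and 2.71. khk, the ketohexokinase that phosphorylates fructose, had 74.4 and 92.2 CPM in absorptive enterocyte-like cells against 16.4 and 20.1 CPM. slc2a2, a glucose and fructose transporter of the basolateral membrane, had 63.7 and 71.2 CPM against 17.2 and 17.5 CPM. The same rule was applied to each class alone, against all other kept cells, which then included the remaining absorptive classes. Of the 7 fructose genes, 5 were higher in anterior, 0 in ileal and 1 in lysosome-rich enterocyte-like cells, with 1 lower in each. Of the 12 gluconeogenesis-specific genes, 6, 0 and 1 were higher and 4, 0 and 3 lower, in this order of classes. Of all 18454 genes, 5.07%, 1.11% and 4.4% were higher and 46.3%, 29.5% and 28.8% lower.

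Glycolysis-only steps went the other way. Of 13 genes, 1 was higher and 9 were lower, with a median log2 ratio of -4.53. The higher one was pklr, the liver-type pyruvate kinase, with 337 CPM in WT and 324 CPM in il26KO against 130 and 120 CPM. pkmb, a muscle-type pyruvate kinase, was at 0.098 and 0.152 CPM against 10.8 and 20.3 CPM, and hk1, a hexokinase, at 0.938 and 0.898 CPM against 24.6 and 32.1 CPM.

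Steps shared by both directions split by paralog, with 4 of 18 genes higher and 9 lower and a median log2 ratio of -0.61. gapdh, tpi1b (triosephosphate isomerase), pgam2 (phosphoglycerate mutase) and eno3 (enolase) were higher. The eno3 level in absorptive enterocyte-like cells was 1549 CPM in WT and 1449 CPM in il26KO. Besides gapdhs, the aldolase gene aldoab was lower, at 0.391 and 0.457 CPM against 50.0 and 67.3 CPM. In the substrate supply list 8 of 17 genes were higher and 2 lower, with a median of 0.97. got1, the cytosolic aspartate aminotransferase, and mdh1aa, the cytosolic malate dehydrogenase, were among those higher, mdh1aa with 844 and 933 CPM against 221 and 219 CPM. Among 26 regulators 5 were higher and 8 lower. The largest differences were those of creb3l3a and creb3l3b, genes of membrane-bound transcription factors whose mammalian relative acts in fasted liver, with log2 ratios of 3.22 and 4.46 for creb3l3a and of 4.27 and 3.98 for creb3l3b.

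**Figure D4:**
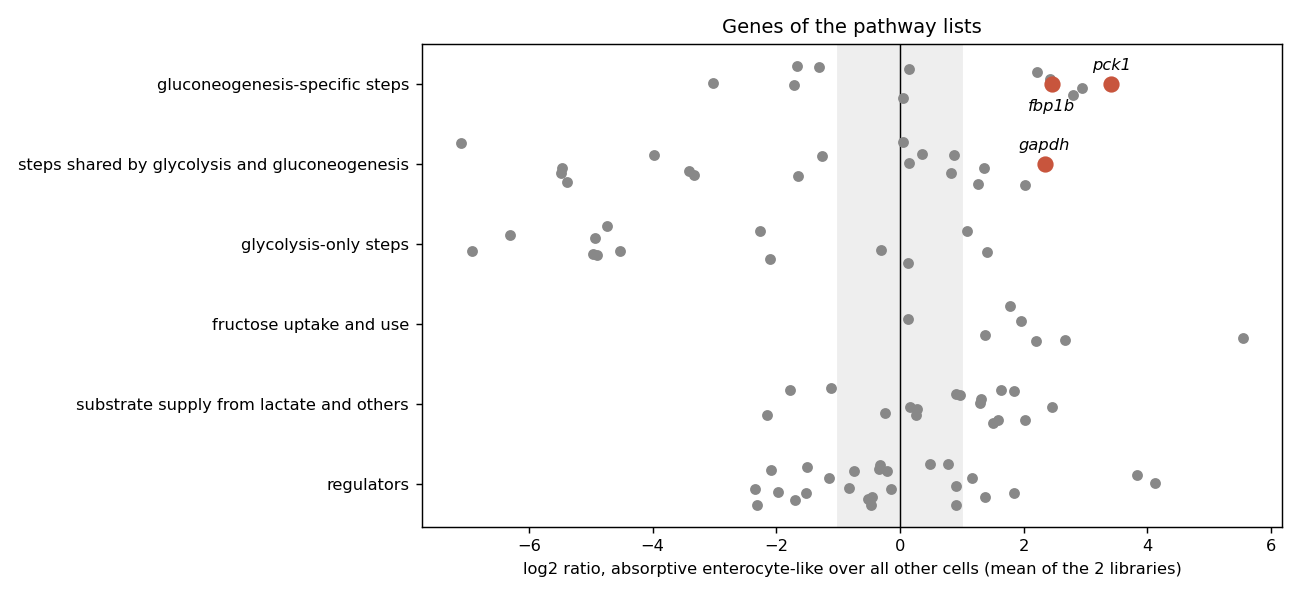
Log2 ratio of the level in absorptive enterocyte-like cells over that in all other cells, mean of both libraries, for the genes of 6 pathway lists with at least 50 UMIs in each library. Red points are pck1, fbp1b and gapdh, and the shaded band covers differences under 2-fold: 6 of 7 genes of the fructose list lie to its right and 9 of 13 genes of the glycolysis-only list to its left.

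The genes most like each of them in distribution were found among 13454 genes, by Pearson's r of log2(CPM + 10) over the same 26 profiles, which share 2 libraries and differ in depth. For pck1 they were si:ch211-161h7.5 (0.98), faah2b, g6pca.2, rdh1 and zanl. For fbp1b they were si:ch211-161h7.5 (0.98), pck2, si:dkey-36i7.3, zgc:66484 and si:ch211-117n7.7. For gapdh they were zgc:194392 (0.97), si:ch211-107o10.3, pla2g7, ap1s3a and zgc:158846. Between pck1 and fbp1b r was 0.97, between fbp1b and gapdh 0.94, and between pck1 and gapdh 0.91.

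Between the genotypes, pck1 was lower in the il26KO library in anterior enterocyte-like cells, with a log2 ratio of il26KO over WT of -0.45 (interval -0.46 to -0.43). In ileal enterocyte-like cells the log2 ratio was -0.15 (-0.20 to -0.10). There the 12 anterior enterocyte markers summed to 11467 CPM in WT and 7739 CPM in il26KO, with 9 of 12 lower in il26KO. The 7 measured ileal markers summed to 141636 and 131801 CPM, with 6 of 7 lower. The part of these marker levels in the ileal pck1 value was not tested. In lysosome-rich enterocyte-like cells pck1 was higher in il26KO, with a log2 ratio of 0.61 (0.55 to 0.67). Over the absorptive enterocyte-like cells together the log2 ratio was -0.29 (-0.31 to -0.28). In barcodes without a cell it was -0.04 (-0.08 to 0.00). These absorptive values are all under 2-fold, a size that 5.09% of 15653 genes exceeded upward and 2.73% downward in absorptive enterocyte-like cells.

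The median gene was itself higher in il26KO anterior enterocyte-like cells, by 0.18 on the log2 scale. Relative to that median the log2 ratios in the anterior class were -0.63 for pck1, -0.36 for fbp1b and -0.13 for gapdh. The gapdh value thus changed sign with the scaling. The pck1 value in the anterior class was below 0 in each of the clusters, at -0.47, -0.21 and -0.27, and at each depth. Cells under 10000 UMIs had -0.54, those of 10000 to 40000 UMIs -0.43 and those of at least 40000 UMIs -0.44. The clusters held unequal amounts of pck1 in both libraries, with 2401 CPM in WT against 2081 CPM in the cluster of shallow cells (a median of 2867 UMIs), 2301 against 1911 CPM in the next and 1583 against 1139 CPM in the deepest. The largest group of cells of the class was in the shallow cluster in WT (308 cells) and in the deepest cluster in il26KO (355 cells).

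In lysosome-rich enterocyte-like cells both clusters had more pck1 in il26KO than in WT. The shallower cluster (a median of 7425 UMIs) had 558 against 477 CPM, and the deeper one (24995 UMIs) 545 against 280 CPM. Between the clusters the difference was thus larger in the deeper one. By depth of single cells over the whole class it was larger in shallow cells. The log2 ratios were 1.15 under 10000 UMIs, 0.83 from 10000 to 40000 and 0.30 in cells of at least 40000 UMIs. gapdh was higher too, with a log2 ratio of 0.63 (0.59 to 0.67) and values of 0.55, 0.53 and 0.73 at these depths. fbp1b had 0.15 (0.09 to 0.21). Summed over the list, the 10 lysosome-rich enterocyte markers stood at 39456 CPM in the WT and 22145 CPM in the il26KO cells of this class, with 8 of 10 lower in il26KO. The 12 anterior enterocyte markers summed to 1419 and 1402 CPM in the class. In the deeper cluster they summed to 1107 and 1258 CPM, with 10 of 12 higher in il26KO. In the shallower cluster the sums were 1869 and 1556 CPM, with 8 of 12 lower. Over the class the 10 measured hepatocyte markers summed to 7.15 CPM in WT, with fga and fgb at 0. In il26KO they summed to 45.1 CPM with all 10 detected. In barcodes without a cell they summed to 441 and 2930 CPM. The part of these marker levels in the higher pck1 and gapdh levels was not tested.

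fbp1b differed less than pck1 in the absorptive epithelium. Its log2 ratio was -0.18 (-0.20 to -0.16) in anterior, 0.01 (-0.05 to 0.08) in ileal and -0.08 (-0.10 to -0.06) over all absorptive enterocyte-like cells. For gapdh the ileal value was 0.20 (0.17 to 0.24) and that over all absorptive enterocyte-like cells 0.17 (0.16 to 0.18). The pooled values of fbp1b and gapdh, too, mix classes of unlike level whose shares of UMIs differed between the libraries. In barcodes without a cell gapdh was higher in il26KO by 0.29 (0.26 to 0.31).

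Outside the absorptive classes pck1 was lower in il26KO in 4 further classes. The log2 ratio was -0.66 (-0.90 to -0.43) in enteroendocrine-like and -0.64 (-0.89 to -0.38) in best4 enterocyte-like cells. It was -0.62 (-0.69 to -0.55) in epidermal-like and -0.59 (-0.77 to -0.41) in progenitor-like cells. Under other settings the epidermal-like value ran from -0.77 to 0.36 and the progenitor-like one from -1.28 to -0.06. In progenitor-like cells the 12 anterior enterocyte markers summed to 2416 CPM in WT and 1760 CPM in il26KO, with 8 of 12 lower. The 7 measured ileal markers summed to 15613 and 10433 CPM. The part of these marker levels was not tested. Over the 14 classes pck1 was higher beyond counting error in 3 and lower in 6, fbp1b higher in 3 and lower in 1, and gapdh higher in 7 and lower in 3. Among all genes with at least 50 UMIs, the share higher by this rule ran from 10.1% in best4 enterocyte-like to 42.5% in anterior enterocyte-like cells. The share lower ran from 7.94% in progenitor-like to 27.2% in skeletal muscle-like cells. In the epidermal-like class the pooled values mixed clusters of unlike level: within the cluster led by krt91 and malb the log2 ratios were -0.30 for pck1, 0.42 for fbp1b and 0.08 for gapdh, where the pooled class gave -0.62, 0.05 and -0.27. The small cluster led by gstp2 went the other way for pck1, with a log2 ratio of 1.63 (0.86 to 2.48). In that cluster the 12 anterior enterocyte markers summed to 1039 CPM in WT and 4298 CPM in il26KO, with 11 higher in il26KO. The 7 measured ileal markers summed to 5938 and 6159 CPM. The part of enterocyte RNA or of mixed droplets in its pck1 value was not tested.

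Differences past 2-fold were seen in leukocyte-like cells for all 3 genes and in duct-like cells for pck1. Those in leukocyte-like cells turned direction under other filters or thinning, where the log2 ratio was as low as -0.53 for pck1, -0.51 for fbp1b and -0.23 for gapdh. In leukocyte-like cells, where 4.55% of 8151 genes were past 2-fold upward, the levels in il26KO against WT were 57.7 against 17.5 CPM for pck1, 33.6 against 9.23 CPM for fbp1b and 134 against 56.4 CPM for gapdh. A single il26KO cell held 50.9% of the pck1 UMIs of that class. Without the cell richest in the gene in each library the log2 ratio was 0.95 for pck1, compared with 1.72, and 0.92 for gapdh, compared with 1.25. The fbp1b value was then 1.31 (0.75 to 1.91), compared with 1.86, and stayed past 2-fold. By cluster, pck1 had a log2 ratio of 2.96 (2.28 to 3.71) in the leukocyte-like cluster of 74 WT and 77 il26KO cells, and of -0.45 (-1.09 to 0.18) in that of 150 and 127 cells. All 12 anterior enterocyte markers were higher in these il26KO cells as well, with a sum of 2094 against 549 CPM, and the hepatocyte list summed to 48.8 against 9.98 CPM. In duct-like cells, where 3.94% of 7917 genes were past 2-fold upward, pck1 stood at 41.8 against 14.8 CPM and 1 il26KO cell held 33.3% of its UMIs. There all 12 anterior enterocyte markers were higher, at 1266 against 641 CPM, while the 7 measured ileal markers summed to 751 against 1480 CPM and the 10 lysosome-rich markers to 274 against 883 CPM. The part of enterocyte RNA or of mixed droplets in these values was not tested.

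**Figure D5:**
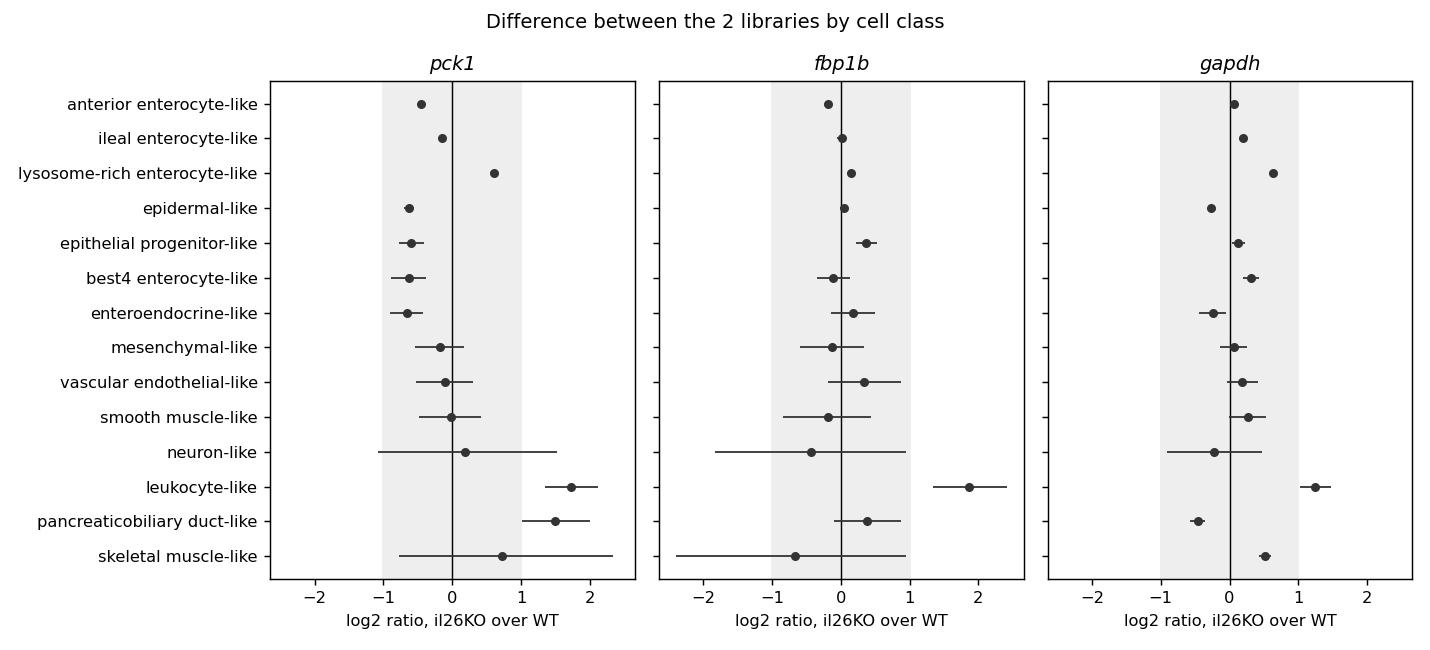
Log2 ratio of il26KO over WT for pck1, fbp1b and gapdh in 14 cell classes with 95% counting intervals, and a shaded band for differences under 2-fold. pck1 lies at -0.45 in anterior and at 0.61 in lysosome-rich enterocyte-like cells, and points outside the band are those of leukocyte-like cells, which change direction under other filters, and of duct-like cells.

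Of the 85 genes of the 6 lists with at least 50 UMIs in absorptive enterocyte-like cells, 2 were past 2-fold higher in il26KO and 1 was past 2-fold lower. These were slc37a4b and eno4, each at or under 1.02 CPM, and fbp2, at 1.86 CPM in WT against 0.762 CPM. The fbp2 log2 ratio was -1.28 there and -1.35 in barcodes without a cell, which held 119 CPM in WT and 46.8 CPM in il26KO. By class, the absorptive fbp2 levels were 1.36 to 3.09 times the amount expected from free RNA. The part of free RNA in the fbp2 difference was not tested. Beyond counting error 50 were higher and 18 lower, beside 37.6% and 16.2% of all genes, and the median log2 ratio was 0.15 for the lists and 0.13 for all genes. In anterior enterocyte-like cells 4 of 82 list genes were past 2-fold higher and 1 was lower, where 6.42% of all genes were past 2-fold upward and 2.25% downward. The g6pca.2 level differed there as that of pck1 did, with 854 CPM in WT and 630 CPM in il26KO and a log2 ratio of -0.44 (-0.46 to -0.42). pck2 did not, with a log2 ratio of 0.24 (0.19 to 0.29), nor did pcxb, with 0.12 (0.10 to 0.14). The 3 genes of this comparison were chosen after their values were seen.

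In lysosome-rich enterocyte-like cells, where 3.65% of 11186 genes were past 2-fold upward and 2.99% downward, 2 of 75 list genes were higher and 0 lower by this rule. They were gpd1b, a cytosolic glycerol-3-phosphate dehydrogenase, at 96.8 against 36.8 CPM, and cebpb, a transcription factor of the CEBP family, at 434 against 185 CPM. khk was at 73.7 CPM in il26KO against 39.1 CPM in WT, a log2 ratio of 0.91 (0.74 to 1.08), and was also named after its value was seen. In ileal enterocyte-like cells, where 2.67% of 7778 genes were past 2-fold upward and 3.0% downward, 4 of 65 list genes were higher and 1 was lower. gpd1b and cebpb were again among the higher ones, with log2 ratios of 1.24 and 1.09, and the lower one was gapdhs, at 7.09 against 15.4 CPM. Those gapdhs levels were 2.42 (il26KO) and 2.68 (WT) times the amount expected from free RNA. In barcodes without a cell gapdhs was at 270 CPM in il26KO against 361 CPM in WT.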

How the data were processed

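Droplet single-cell RNA libraries of larval gut, 1 WT and 1 il26KO, were analysed. The authors deposited raw UMI counts for each gene and barcode. The file headers name Cell Ranger 7.1.0 as their source, and the submitters' processing notes name build danRer11. Treatment of intronic reads and the annotation release were not given in the sources used here. Total UMIs were 125236138 (WT) and 122200924 (il26KO) over 1867865 and 1870103 barcodes. Barcodes with at least 500 genes and at most 25% mitochondrial UMIs were kept. Scrublet (scanpy 1.11.5) had no working automatic threshold, so the highest-scoring barcodes were removed at 0.8% per 1000 cells (229 WT, 126 il26KO). Cells were clustered in Seurat 5.3.0 (CCA integration, 30 dimensions, resolution 0.8) on 2000 variable genes without mitochondrial and pathway genes, and clusters were named from 18 marker lists, of which at least 3 markers had to be met. pck1 was among the 10 leading genes of 1 anterior and of the ileal enterocyte-like cluster.

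Counts were summed per class and library. CPM have exact Poisson intervals, shares exact binomial (Clopper-Pearson) intervals and ratios exact conditional binomial intervals, covering counting error only, since cells are not replicates. No ratio between the levels of different genes was formed, and levels given side by side were not corrected for differences in capture between genes. A difference was called past the fold at 2-fold with at least 50 UMIs. Named genes were the 3 genes, their paralogs, at most 4 genes per list past the fold by size, and the 5 most alike. Some but not all genes making up counts of 5 or fewer, and those in the comparison within the gluconeogenesis list, were also named, after their values were seen. The members, lists and rules were chosen with earlier results of these data known. Scaling (TMM, edgeR 4.0.16; median of ratios), filters, clustering, thinning and free RNA were varied.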

Additional observations from a re-analysis of the deposited data

Results flagged for a closer look

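pck1 differed between the libraries in opposite directions within the absorptive epithelium. Its log2 ratio of il26KO over WT was -0.45 in anterior and -0.15 in ileal enterocyte-like cells, and 0.61 in lysosome-rich enterocyte-like cells, each beyond counting error. fbp1b had -0.18 in anterior and 0.15 in lysosome-rich enterocyte-like cells, and 0.01 in ileal enterocyte-like cells, which was within counting error. With 1 library per genotype the difference between the classes was not tested. Enterocyte marker sums also differed between the libraries in ileal and lysosome-rich enterocyte-like cells, and their part was not tested.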

How the results depend on the processing

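No paired analysis was possible because each genotype has 1 library and the labels give no replicate numbers, so no library could be left out either. Values over all absorptive enterocyte-like cells mix classes of unlike level whose shares of UMIs differed between the libraries. Over these cells, pck1 and fbp1b stayed below 0 and gapdh above 0 in log2 il26KO over WT under every setting tried. Their values beyond counting error of -0.29 (pck1), -0.08 (fbp1b) and 0.17 (gapdh) follow, in this order where 3 are given. They were -0.42, -0.21 and 0.047 with median-of-ratios and -0.43, -0.22 and 0.034 with TMM scaling. By depth they were -0.23, -0.13 and 0.24 in cells under 10000 UMIs, -0.22, -0.15 and 0.075 from 10000 to 40000, and -0.35, -0.11 and 0.13 from 40000 up. They were -0.22, -0.031 and 0.23 with at least 1000 genes, -0.24, -0.047 and 0.23 with doublets kept, -0.25, -0.057 and 0.21 with merged libraries, -0.25, -0.055 and 0.21 at resolution 0.4 and -0.25, -0.048 and 0.22 at resolution 1.2. For pck1 and gapdh they were -0.25 and 0.22 with at least 300 genes, -0.23 and 0.24 with cells weighted equally, -0.22 and 0.27 after thinning, and -0.31 and 0.16 without mitochondrial UMIs in the total. pck1 was at -0.28 with a minimum on UMIs, and gapdh at 0.18 with no mitochondrial filter.

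For absorptive enterocyte-like over other cells (mean log2 ratios of 3.41, 2.46 and 2.34), the values in the same order were 2.91, 2.05 and 1.88 with a minimum on UMIs, 3.51, 2.57 and 2.38 at 10% mitochondrial UMIs, 3.38, 2.40 and 2.27 with no such filter, 3.47, 2.51 and 2.39 without mitochondrial UMIs in the total, 3.59, 2.75 and 2.66 with cells weighted equally, 3.52, 2.51 and 2.41 with free RNA subtracted, and 3.58, 2.70 and 2.69 after thinning. With doublets kept pck1 was at 3.32 and gapdh at 2.27. At resolution 1.2 fbp1b was at 2.49 and gapdh at 2.31. gapdh was at 2.26 with at least 300 and at least 1000 genes, 2.31 with merged libraries and 2.31 at resolution 0.4. With no filter on low counts 4718 genes were past 2-fold in absorptive enterocyte-like cells, compared with 1225.

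The higher levels in il26KO leukocyte-like cells turned to lower ones under several settings, and the cause was not tested. pck1 was at -0.53 and fbp1b at -0.51 with at least 300 genes, at -0.37 and -0.091 with no mitochondrial filter, and at -0.27 and -0.27 after thinning to 1000 UMIs. With doublets kept pck1 was at -0.38 and gapdh at -0.23. Over 42 values by class, 74 of 750 alternatives had the other sign, these 8 among them. The pck1 values stayed between -0.65 and -0.42 in anterior and between 0.53 and 0.75 in lysosome-rich enterocyte-like cells. Settings by depth bin, by top cell and without hepatocyte-rich cells were chosen after seeing the data. Precision is limited where few UMIs were counted, as for pck1 in skeletal muscle-like cells (7 UMIs in WT and 11 in il26KO).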
